A study of Mus musculus with 4 samples.

Results

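Bola3 encodes a mitochondrial protein of iron-sulfur cluster assembly, and its transcript was lower after CTCF knockdown in primary mouse cortical culture. It was described here with 8 other genes of the same assembly line: Nfs1, Lyrm4, Iscu, Glrx5, Isca1, Isca2, Nfu1 and Bola1. These 9 genes of the 37437 measured were picked by name, and the set was chosen because Bola3 fell. The TPM values of Bola3 in all 4 libraries made that choice, so the fall of Bola3 is given below as a description, with no test. All 9 genes passed the filter of at least 1 TPM in at least 2 libraries.

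RNA was sequenced from cultures in which an adeno-associated virus was used to knock down Ctcf (shCTCF, 2 libraries). In the control cultures the target was lacZ, a bacterial gene (shLAC, 2 libraries). CTCF is a DNA-binding protein of insulators that shapes chromatin loops together with cohesin. The protocol speaks of cortical neurons, and astrocyte and oligodendrocyte lineage markers were also detected. Both groups received virus. Nothing in the labels says whether the replicates were separate cultures, so p-values measure library-to-library spread alone, which may be technical.

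Iron-sulfur clusters are cofactors of respiratory complexes, lipoyl synthase and DNA repair enzymes. In mitochondria, a cysteine desulfurase supplies sulfur to a scaffold protein on which a small cluster forms. Chaperones and a glutaredoxin pass this cluster on, and late factors build and deliver the larger clusters to their client enzymes. BOLA3 and NFU1 act at the delivery end. In humans, loss of either gene causes a multiple mitochondrial dysfunctions syndrome, in which proteins that need lipoate, such as the pyruvate dehydrogenase complex, are impaired.

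Expression was deposited as TPM, a length-corrected share of all transcripts. The files do not give the sequencing depth behind each value. In shLAC replicate 2, 13 satellite-like predicted genes took 20.2% of all TPM, against 1.29% and 1.86% in the shCTCF libraries and 0.405% in shLAC replicate 1. Values were therefore also divided by a median-ratio factor, and are then called scaled TPM. Changes are differences of log2(scaled TPM + 1), shCTCF minus shLAC, which understate the change of low genes. The median change of the 12816 tested genes was 0.00 on this scale and 0.17 without scaling. Ctcf itself had 3.56 and 3.56 TPM in the shCTCF libraries, against 8.49 and 7.32 TPM in the shLAC libraries. Its log2 change was -1.13 (SE 0.0617, limma adjusted p = 0.0177). The adjusted p was 0.121 without shCTCF replicate 1, 0.109 without shCTCF replicate 2 and 0.065 without shLAC replicate 2. Neuronal markers were the most abundant of the marker lists, with summed levels of 942 and 927 scaled TPM in shCTCF and 916 and 924 scaled TPM in shLAC. The 5 microglial markers summed to at most 0.661 scaled TPM in any library. The 3 endothelial markers summed to at most 0.397 scaled TPM, and Cldn5 was listed at 0 in all libraries. With 2 libraries a group, an exact two-sided permutation test of a single value cannot give a p below 0.333.

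Bola3 (ENSMUSG00000045160, chr6:83349147-83360136, plus strand, mm10) had 4.07 and 2.98 TPM in the shCTCF libraries, against 8.84 and 6.83 TPM in the shLAC libraries. The 2 groups did not overlap, with shCTCF the lower. After scaling, the mean was 3.27 ± 0.620 scaled TPM in shCTCF and 8.34 ± 0.194 scaled TPM in shLAC (SD, n = 2 each), so that the shCTCF mean was 39.2% of the shLAC mean. The log2 change was -1.14. As deposited, without scaling, the change was -0.97. Among the 12816 tested genes it ranked 40 from the lowest change, and among the 11268 tested protein-coding genes it ranked 2. Bola3 has 9 annotated transcripts, and gene-level TPM cannot show which of them was lower. No annotated gene overlaps it, and no near-identical copy was found in the GENCODE transcripts.

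Because the culture was measured in bulk, fewer cells that express a gene and less RNA per cell cannot be told apart. All 7 astrocyte markers (Gfap, Aqp4, Slc1a3, Slc1a2, Aldh1l1, Gja1 and S100b) were tested, and each had a log2 change below 0, as Bola3 did. Over all genes, 0 of the 7 passed the test, where 1.05% of all tested genes did. In the fit on protein-coding genes alone, 2 of the 7 passed as lower, where 3.48% of those genes did. The astrocyte markers summed to 88.2 and 72.4 scaled TPM in shCTCF, against 111 and 96.4 scaled TPM in shLAC. The median log2 change of these markers was -0.24. The 4 fibroblast markers summed to 2.14 and 1.83 scaled TPM in shCTCF, against 3.2 and 3.09 scaled TPM in shLAC. Only 1 of these 4, Dcn, was tested. Its log2 change was -0.49, and it passed as lower in the fit on protein-coding genes alone but not over all genes. The 3 endothelial markers, none of them tested, summed to 0.164 and 0.19 scaled TPM in shCTCF, against 0.269 and 0.397 scaled TPM in shLAC. The neuronal, excitatory, inhibitory and oligodendrocyte lineage sums did not fall. The 5 excitatory markers summed to 134 and 129 scaled TPM in shCTCF, against 120 and 116 scaled TPM in shLAC, with 2 of the 5 changes below 0. The 4 inhibitory markers summed to 123 and 120 scaled TPM in shCTCF, against 114 and 107 scaled TPM in shLAC. Of the 6 oligodendrocyte lineage markers, 0 had a change below 0, and the median was 0.03. The part of these shifts in the level of Bola3 was not tested.

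The 250 bases before the annotated start of Bola3 are shown because Bola3 is the member that fell, and CTCF is a DNA-binding protein. The window lies at chr6:83348897-83349146 on the plus strand of GRCm38.p6 and was taken from RefSeq. Beside it stands the window of Mthfd2, the neighbouring gene described below, at chr6:83317605-83317854 on the minus strand. Both are printed 5′ to 3′, and capitals mark a match to AGGGGGC on either strand.
Bola3: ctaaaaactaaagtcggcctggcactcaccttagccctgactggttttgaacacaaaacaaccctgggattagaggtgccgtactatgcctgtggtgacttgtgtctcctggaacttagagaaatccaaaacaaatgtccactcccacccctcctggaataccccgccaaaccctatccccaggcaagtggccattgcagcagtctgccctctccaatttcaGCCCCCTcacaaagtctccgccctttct
Mthfd2: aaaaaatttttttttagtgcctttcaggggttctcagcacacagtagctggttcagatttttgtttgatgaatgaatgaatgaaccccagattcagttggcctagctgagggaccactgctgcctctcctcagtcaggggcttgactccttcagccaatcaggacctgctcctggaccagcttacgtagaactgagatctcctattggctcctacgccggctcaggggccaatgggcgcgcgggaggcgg
Both strands were searched for the CTCF core motif, with its variable positions left free, and for the shorter AGGGGGC, which can lie within it. The core motif was in 0 of the 10 windows of the 8 members with a RefSeq entry, and in 2.07% of all 32851 windows of this length. The shorter one was in each of the 3 Bola3 windows, in those of Isca2 and Lyrm4, and in 9.43% of all windows. Of the Bola3 windows, the first pair overlap and share the match printed above. The Mthfd2 window held neither. A match of letters is not a binding site, and its absence from a window says nothing of CTCF elsewhere.

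The other 8 members were each tested in the fit across all genes. At an adjusted p below 0.05, 0 of 8 passed, where 1.05% of all tested genes did. At an unadjusted p below 0.05, 2 of 8 passed (Lyrm4 and Glrx5), where 20.0% of all tested genes did. In fits on protein-coding genes alone and on the deposited values, 0 of 8 passed as well, where 6.06% and 2.82% of tested genes did. Their log2 changes ran from -0.24 to 0.14, with 4 below 0, 4 above 0 and a median of -0.02. The scaled values of the 2 groups did not overlap in 4 of the 8 (Lyrm4, Iscu, Glrx5 and Isca1), a share near the 53.0% of all tested genes without overlap. Summed over these 8 genes, expression was 111.8 ± 0.141 scaled TPM in shCTCF and 110.6 ± 1.56 scaled TPM in shLAC (SD, n = 2 each). A p that misses the threshold does not show that values were alike, and the 95% intervals together spanned -0.57 to 0.38.

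**Figure D1:**
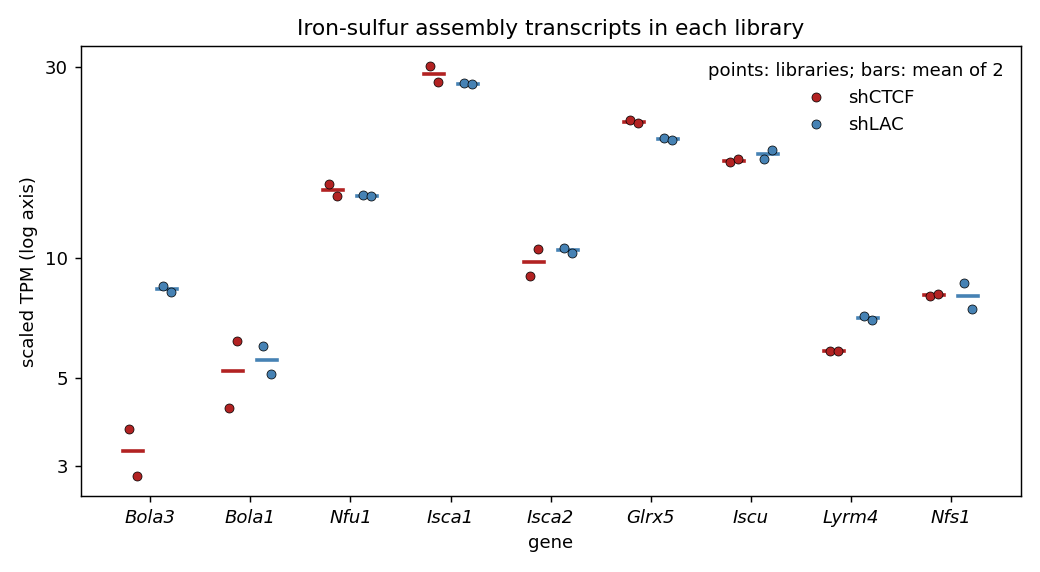
Scaled TPM (log axis) of the 9 genes in each library, with shCTCF in red left of shLAC in blue; points are libraries and bars are means of 2. The shCTCF points of Bola3 lie below all others of that gene, while the 2 groups of the remaining genes lie close to each other or overlap.

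The early step held the smallest change and the member nearest to the threshold. Nfs1, the cysteine desulfurase (chr2:156123639-156144186, minus strand), had 8.77 and 8.51 TPM in shCTCF, against 9.01 and 6.17 TPM in shLAC. The groups overlapped, and the log2 change was 0.01 (95% interval -0.21 to 0.22, limma adjusted p = 0.977). Lyrm4, the ISD11 subunit that stabilises the desulfurase (chr13:35978395-36117526, minus strand), had 6.39 and 6.11 TPM in shCTCF, against 7.42 and 5.79 TPM in shLAC. As deposited these values overlapped. Scaled, they were 5.83 and 5.81 in shCTCF, against 7.12 and 6.96 in shLAC, and did not overlap. The log2 change of Lyrm4 was -0.24 (SE 0.049, 95% interval -0.37 to -0.11), with a limma adjusted p of 0.117 over all tested genes and 0.0656 over protein-coding genes.

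Iscu, the scaffold on which the cluster is built (chr5:113772748-113778288, plus strand), had 19.01 and 18.53 TPM in shCTCF, against 18.39 and 15.51 TPM in shLAC. The sign of its change depended on the scaling: it was -0.05 scaled (95% interval -0.18 to 0.08, limma adjusted p = 0.617) and 0.14 as deposited. Other early factors lay near it. The early list held 8 genes, with a median log2 change of -0.02, and 0 of them passed the test. Ndufab1, the mitochondrial acyl carrier protein that binds LYRM4, changed by 0.00 on the log2 scale (limma adjusted p = 0.982).

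Glrx5, the monothiol glutaredoxin that receives the new cluster (chr12:105032688-105042906, plus strand), had 24.33 and 22.82 TPM in shCTCF, against 20.75 and 16.40 TPM in shLAC. Both shCTCF values lay above both shLAC values, also when scaled, yet the log2 change of 0.14 (95% interval 0.03 to 0.25) did not pass the test (limma adjusted p = 0.192). The chaperone Hspa9, which releases the cluster from the scaffold, had a log2 change of -0.12 (limma adjusted p = 0.463). Of the 5 genes of the transfer list, 0 passed, and their median was 0.03.

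The late factors include Bola3, which chose the set, so its distance from the others is no result. Isca1 (chr13:59755409-59769810, minus strand) and Isca2 (chr12:84773251-84775088, plus strand) encode the A-type proteins that assemble the larger clusters. Isca1 had 33.09 and 28.96 TPM in shCTCF, against 28.56 and 22.63 TPM in shLAC (log2 change 0.08, 95% interval -0.08 to 0.23, limma adjusted p = 0.523). Isca2 had 9.86 and 11.04 TPM in shCTCF, against 11.04 and 8.54 TPM in shLAC, and the groups overlapped (log2 change -0.09, 95% interval -0.31 to 0.13, limma adjusted p = 0.58). Nfu1 (chr6:87009236-87028461, plus strand) encodes the carrier that works beside BOLA3. It had 16.73 and 14.96 TPM in shCTCF, against 14.97 and 11.85 TPM in shLAC, and the scaled groups overlapped (log2 change 0.04, 95% interval -0.10 to 0.18, limma adjusted p = 0.718). The late list held 7 genes; of the 6 besides Bola3, 0 passed and the median was -0.03. The ratio of Bola3 to Nfu1 TPM within a library uses the Bola3 values that chose the set. It does not depend on the scaling. It was 0.243 and 0.199 in shCTCF, against 0.591 and 0.576 in shLAC.

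Bola1, the mitochondrial relative of Bola3 that binds GLRX5 (chr3:96196588-96219709, minus strand), was the most variable of the 8. It had 4.61 and 6.50 TPM in shCTCF, against 6.25 and 4.24 TPM in shLAC, so that the groups overlapped. Its log2 change was -0.10 (SE 0.177, 95% interval -0.57 to 0.38, limma adjusted p = 0.804), and it was 0.07 as deposited. The third gene of the BolA family, Bola2, whose protein works with GLRX3 in the cytosol, had 12.48 and 13.30 TPM in shCTCF, against 11.99 and 10.08 TPM in shLAC (log2 change 0.02, limma adjusted p = 0.89). The 3 family members thus differed in their values, although a difference between their changes was not tested.

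**Figure D2:**
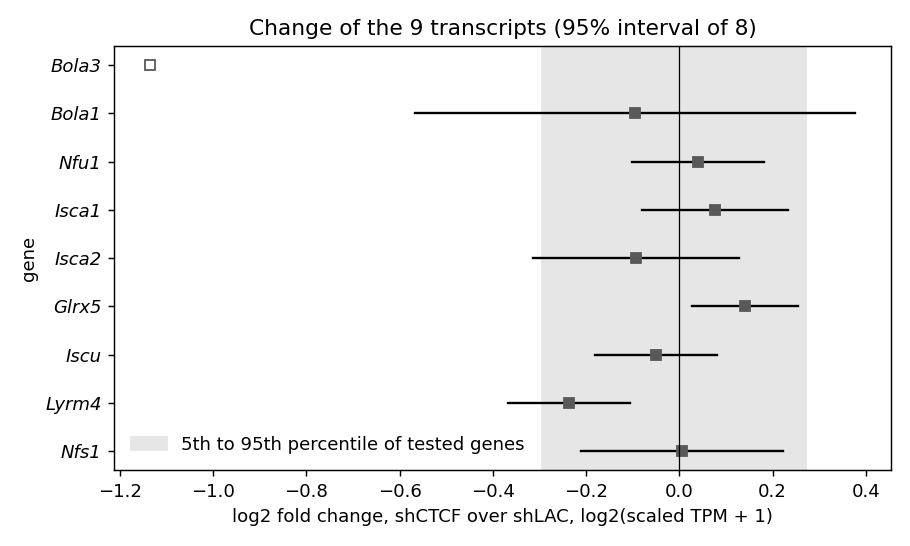
Log2 change of each of the 9 genes, shCTCF over shLAC, with the 95% interval from limma for the 8 tested members; the grey band runs from the 5th to the 95th percentile of all tested genes (-0.29 to 0.27). The point estimates of 8 genes (filled) lie inside the band, and Bola3 (open, the gene that chose the set, without an interval) lies at -1.14.

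The order of the levels, which TPM allows because it corrects for length, was much the same in both groups apart from Bola3. In shCTCF the mean TPM ran down from Isca1 (31.03) through Glrx5, Iscu, Nfu1, Isca2, Nfs1, Lyrm4 and Bola1 to Bola3 (3.53). Of neighbours in that order, only Lyrm4 and Bola1 had overlapping library values. In shLAC it ran from Isca1 (25.59) through Glrx5, Iscu, Nfu1, Isca2, Bola3 (7.84), Nfs1 and Lyrm4 to Bola1 (5.25). There, as deposited, Glrx5 and Iscu overlapped, and so did each neighbouring pair from Isca2 down to Bola1. Scaled, the only shLAC neighbours that overlapped were Bola3 (8.48 and 8.21) and Nfs1 (8.64 and 7.41). In shCTCF, Lyrm4 and Bola1 overlapped on both scales. Bola3 ranked 9 of the 9 in both shCTCF libraries, against 7 and 6 in the shLAC libraries. It made up 3.21% and 2.48% of the summed TPM of the 9 genes in shCTCF, against 7.06% and 6.97% in shLAC.

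The values of some members can include reads of related genes. Isca1 shares 99.0% identity over 1914 nt with AK157302, which had at most 0.02 TPM in any library. Nfs1 overlaps Gm28036 and is identical to it over 258 nt; Gm28036 had 3.09 and 2.86 TPM in shCTCF, against 2.87 and 2.91 TPM in shLAC. Iscu is 98.4% identical to the pseudogene Gm16437 over 504 nt and Nfu1 is 95.7% identical to Gm7859 over 771 nt. Neither pseudogene was among the genes measured, so any reads from them cannot be checked. Nfs1, Lyrm4, Isca1 and Bola1 overlap other annotated genes, and the remaining 5 members overlap none. Without a stated strand, reads of overlapping genes cannot be told apart.

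Genes around the assembly line were then read from 11 lists with 123 distinct genes, of which 111 were tested besides Bola3. In all, 1 passed the test as higher (0.367% of all tested genes did) and 0 passed as lower (0.679% did). The one that passed was Aco1. In the fit on protein-coding genes alone, 2 were higher (2.58% of those genes were) and 1 lower (3.48% were). Bola3 aside, the log2 changes on these lists ran from -0.29 to 0.48.

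Aco1 encodes the cytosolic aconitase, which becomes iron regulatory protein 1 when it lacks its cluster. It had 15.76 and 14.81 TPM in shCTCF, against 10.04 and 8.53 TPM in shLAC. Both shCTCF values were higher than both shLAC values, and the scaled shCTCF mean was 143.1% of the shLAC mean. The log2 change was 0.48 (SE 0.0522, 95% interval 0.34 to 0.62, limma adjusted p = 0.048). This call was close to the threshold: the adjusted p was 0.0542 as deposited, 0.284 without shCTCF replicate 1, 0.317 without shCTCF replicate 2, 0.0995 without shLAC replicate 1 and 0.115 without shLAC replicate 2. Over protein-coding genes it was 0.00843.

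Among 16 mitochondrial iron-sulfur proteins, 0 passed the test, and their median log2 change was -0.01. Ndufv2, a complex I subunit, had a log2 change of -0.13 (limma adjusted p = 0.191). Lias, the lipoyl synthase to which BOLA3 and NFU1 deliver clusters, had 8.80 and 8.60 TPM in shCTCF, against 8.26 and 6.67 TPM in shLAC (log2 change 0.02, limma adjusted p = 0.841). Of 18 cytosolic and nuclear iron-sulfur proteins, 13 were tested, and 1 passed as higher (Aco1); the median was -0.03.

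The 19 genes of lipoate synthesis and of the enzymes that carry lipoate had a median log2 change of 0.02, and 0 passed the test over all genes. Pdha1, the catalytic alpha subunit of pyruvate dehydrogenase, had 75.27 and 68.38 TPM in shCTCF, against 58.79 and 45.27 TPM in shLAC. Its log2 change was 0.27, with a limma adjusted p of 0.103 over all tested genes and 0.0315 over protein-coding genes. Dlat, a lipoate-bearing subunit of the same complex, had a log2 change of -0.27, with 0.123 and, over protein-coding genes, 0.0496 as limma adjusted p. Pdhb, the beta subunit, changed by 0.02 (limma adjusted p = 0.878).

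Cytosolic assembly held 11 genes, of which 0 passed and 8 had a change below 0, with a median of -0.08. Its most abundant members were Glrx3 (log2 change -0.09, limma adjusted p = 0.494) and Ciao1 (-0.09, limma adjusted p = 0.341). The 4 genes of iron import and sulfur export had a median of -0.09, and 0 passed. Among them, Gfer, a sulfhydryl oxidase of the intermembrane space, had a log2 change of -0.15 (limma adjusted p = 0.303). Of the 15 iron uptake, storage and regulator genes, 9 were tested; 1 passed as higher (Aco1, listed here too), and the median was -0.01. Tfrc, the transferrin receptor, had 17.45 and 15.81 TPM in shCTCF, against 20.51 and 15.02 TPM in shLAC (log2 change -0.27, limma adjusted p = 0.138).

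All 8 heme synthesis genes were tested, 0 passed, and their median was -0.07. Alas1, the first enzyme of the pathway, changed by 0.05 (limma adjusted p = 0.734), and Fech, the last enzyme and itself an iron-sulfur protein, by 0.04 (limma adjusted p = 0.762). The 15 general mitochondrial genes stood in for mitochondrial content. Their median was -0.07 and 0 passed, with log2 changes of 0.13 for Vdac1, the outer membrane channel (limma adjusted p = 0.281), and 0.09 for Cs, citrate synthase (limma adjusted p = 0.357).

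**Figure D3:**
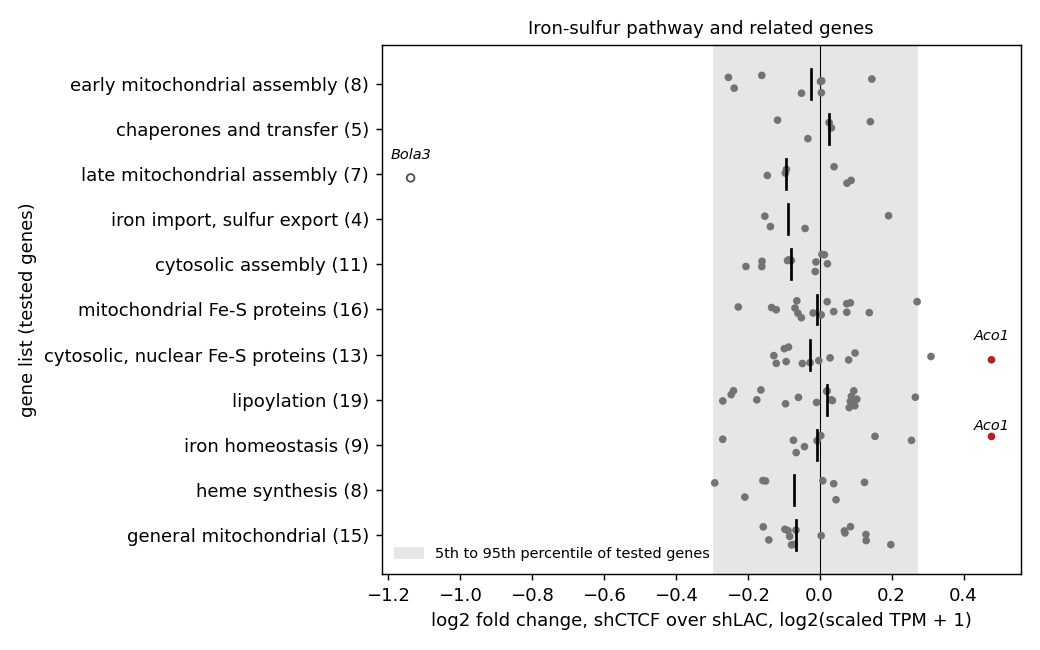
Log2 change, shCTCF over shLAC, of each tested gene on the 11 lists (number tested in brackets); vertical bars are medians, red marks a limma adjusted p below 0.05, and the grey band runs from the 5th to the 95th percentile of all tested genes (-0.29 to 0.27). Every list median lies between -0.09 and 0.03, and that of late assembly includes Bola3 (-0.03 without it). Aco1, on 2 lists, is the red point at 0.48, and Bola3 (open) lies far left of its list.

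The chromosomal surroundings of Bola3 were read next, since CTCF acts on chromatin domains. Within 500 kb of its start lay 54 other annotated genes, of which 20 were tested. One passed the test as lower, where 0.679% of all tested genes did, and 0 passed as higher. It was Mthfd2, a mitochondrial enzyme of folate one-carbon metabolism. Mthfd2 had 2.11 and 1.99 TPM in shCTCF, against 4.68 and 3.50 TPM in shLAC. The groups did not overlap, shCTCF being the lower, and the scaled shCTCF mean was 43.9% of the shLAC mean. The log2 change was -0.88 (SE 0.0619, 95% interval -1.04 to -0.71, limma adjusted p = 0.0308). The adjusted p was 0.184 without shCTCF replicate 1, 0.203 without shCTCF replicate 2, 0.056 without shLAC replicate 1 and 0.0816 without shLAC replicate 2.

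Mthfd2 begins 23.2 kb before Bola3 by its outermost GENCODE start (the RefSeq start of the window above lies farther off), and Mob1a, a regulator of Hippo kinases, begins 23.1 kb before it. Mob1a had 4.11 and 3.71 TPM in shCTCF, against 4.89 and 3.63 TPM in shLAC (log2 change -0.25, limma adjusted p = 0.153). The nearest tested gene on the other side was Tet3, a dioxygenase that oxidises methylcytosine, 109.9 kb after Bola3, with a log2 change of 0.02 (limma adjusted p = 0.893). Besides Mthfd2 and Mob1a, the nearest tested gene before Bola3 was Dctn1, a dynactin subunit, 183.2 kb away (log2 change 0.12, limma adjusted p = 0.24). The changes of all 20 tested neighbours had a median of 0.01, and 10 were below 0. Excluding Mthfd2 and Mob1a, the changes of the 18 tested neighbours ran from -0.38 to 0.29 with a median of 0.02, and 8 were below 0. The lowest of the 18 was Tex261, 426.7 kb after Bola3, with a limma adjusted p of 0.065 over all tested genes and 0.0203 over protein-coding genes.

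**Figure D4:**
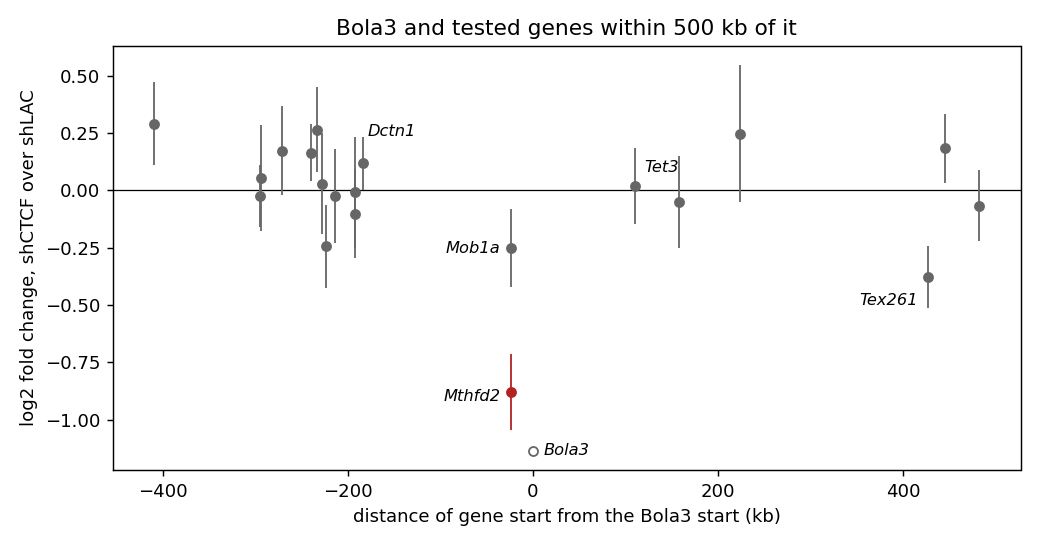
Log2 change, shCTCF over shLAC, of Bola3 (open, without an interval) and of the 20 tested genes within 500 kb of it with 95% intervals from limma, against the distance of their start from that of Bola3 in kb. Mthfd2 (red, limma adjusted p = 0.0308) and Bola3 lie at -0.88 and -1.14, and the other tested neighbours lie between -0.38 and 0.29.

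Among tested genes with a mean of at least 2 TPM, predicted loci left out, the 5 with the pattern most like that of Bola3 were sought. They were found by the Euclidean distance between centred log2(scaled TPM + 1) values over the 4 libraries. They were chosen for being lower in shCTCF as Bola3 was, so they are described without a test. Ppa2, a mitochondrial pyrophosphatase, was nearest at a distance of 0.159, with 7.11 and 6.43 TPM in shCTCF, against 15.94 and 12.24 TPM in shLAC. Aqp4, the water channel of astrocytes and one of the markers above, followed at 0.208, with 2.35 and 1.46 TPM in shCTCF, against 5.65 and 3.49 TPM in shLAC. The next were Kcnf1, a modifying subunit of voltage-gated potassium channels (0.239), Tmem14a, a small membrane protein (0.248), and Gabra5, a GABA-A receptor subunit (0.26). The other 8 assembly genes lay at distances from 0.923 (Lyrm4) to 1.29 (Glrx5). With 4 libraries in 2 groups, such a likeness rests mainly on the difference between the groups.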

How the data were processed

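Total RNA from primary mouse cortical culture was sequenced as paired reads, per the labels' protocols. The authors deposited TPM values per Ensembl gene, 1 file per library. The submitters' processing notes name RSEM 1.2.28, CASAVA and mm10. Aligner settings, annotation release and use of strand were not given in the sources used here. Since TPM keeps no depth, count tests were not used, although the design allowed for counts. GENCODE vM21 (GRCm38, the assembly of mm10) named 37060 of 37437 genes. Values were scaled by median ratios, filtered (at least 1 TPM in at least 2 libraries), transformed to log2(scaled TPM + 1) and fitted with limma 3.58.1 in R 4.3.3, with a trended prior (2.44 degrees of freedom), no covariate and Benjamini-Hochberg adjustment over all 12816 genes at 0.05. On unscaled values the prior took all the weight, so a gene's own spread did not count there. Simulated data were used only to check that the median estimated change closely matched the one put in. No level was set for missed or false calls. Copies were sought at 95% identity over 250 nt. Protein-coding genes of at least 300 nt were also fitted alone, and other scalings, filters, pseudocounts (0.5 and 2), an untrended prior, the replicate number as a block and leaving out each library were tried.

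The members and lists were chosen with earlier results of these data known. The text names Ctcf, the 9 members, called list genes (otherwise the 2 most abundant of a list), called or nearest neighbours of Bola3 and the 5 genes most like it. Bola2, Lias, Dlat, Tfrc, Dctn1 and Tex261 were named after their values were seen. Some genes that this rule would name are not reported here. Same-numbered libraries did not deviate together (correlation over genes 0.0817), so the numbers were not treated as pairs.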

Additional observations from a re-analysis of the deposited data

How the results depend on the processing

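The direction of Bola3, of Ctcf and of Aco1 was the same under all 13 alternatives, and 0 of the other 8 members passed the test under any of them (smallest adjusted p 0.0656, 9 of 104 values with another sign). The log2 change of Bola3 was -0.97 as deposited and -0.98 with a pseudocount of 2, and -1.28 to -0.98 with each library left out. Genes called numbered 47 higher and 87 lower. They were 246 higher as deposited, 291 higher and 392 lower among protein-coding genes, 12 higher and 15 lower with no filter, 51 lower at 5 TPM or more, and 2 to 42 higher and 7 to 64 lower with a library left out, where the lone library of a group is assumed to vary like the other group. Called genes of the pathway lists, 1 in the report, were 3 among protein-coding genes and 0 as deposited, with no filter, with an untrended prior and with any library left out. With the replicate number as a block, 5 genes were higher, 9 lower and 0 on the pathway lists, and Ctcf had a log2 change of -1.13 (limma adjusted p = 0.0572). Without 1 library, the log2 change of Ctcf was -1.18 to -1.10 (limma adjusted p 0.029 to 0.121). The call of Mthfd2 was lost with no filter (limma adjusted p = 0.0964) and under the block (0.0853). Causes of these shifts were not tested. With 2 libraries a group and no depth in the files, small changes cannot be separated from the spread.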
